A study of Homo sapiens with 10 samples.

Results

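The keratin-associated protein (KRTAP) genes were examined for H3K9me3 after knockdown of ERH in the BJ line, which are fibroblasts of human foreskin. All protein-coding genes whose symbol starts with KRTAP were taken from the GRCh38.p14 RefSeq gene table, which gave 94 of the 20037 protein-coding genes on chromosomes 1 to 22, X and Y. The rule used names only and no measured value, but it was set with earlier results of these data known. The genes fell into 5 loci, each a run of KRTAP genes with less than 1 Mb between neighbours. Chromosome 11 carried 2 loci with 6 and 5 genes, chromosome 17 carried 1 with 34, and chromosome 21 carried 2 with 33 and 16.

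The study profiled H3K9me3, a histone mark of heterochromatin, by CUT&RUN, in which an antibody-guided nuclease cuts out the DNA around the bound site. The only values used here are 1 merged list of H3K9me3 regions, which pools the 3 samples given siRNA against ERH (5 nM, transfected in 2 rounds with 3 days between them). The 3 H3K9me3 samples given control siRNA, and the 4 SOX2 samples (2 per siRNA) collected 48 hours after Sendai virus delivery of OCT4, SOX2, KLF4 and c-MYC, were not analysed here. All groups come from the same cell line, and the labels name no separate donors or cultures.

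The list has no columns per sample and no read counts, so the depth is unknown, no value has a spread between replicates, and no test between knockdown and control was made. It holds no expression values, so the fibroblast identity of the cells was not checked. A region shows where H3K9me3 was called after ERH knockdown and says nothing of the control cells. Counts of genes are set beside the same counts over all protein-coding genes as a description, with no test, because neighbouring genes share regions and are not independent.

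KRTAP proteins form the matrix between keratin filaments in the hair shaft. In the hair follicle they are made late, when cortex and cuticle cells harden, and their expression in fibroblasts was not measured here. By composition they are grouped as high sulfur and ultra-high sulfur proteins, which are rich in cysteine and cross-link keratins through disulfide bonds, and as high glycine-tyrosine proteins. The genes are short, mostly have a single exon and lie in tandem arrays. H3K9me3 is known for covering arrays of repeated genes, among them the zinc finger clusters, and ERH is known as a partner of heterochromatin and RNA processing factors.

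H3K9me3 in the KRTAP loci lay mostly between the genes, whose bodies make up 5.50% of the locus spans. The 5 locus spans added up to 1408 kb and contained 15 regions, which is 10.7 regions per Mb against 3.40 per Mb over the whole list. Regions covered 4.67% of the locus spans, 3.12% of the 77.4 kb of KRTAP gene bodies and 4.76% of the bases between them, whereas they covered 1.63% of all chromosomes. Of the 65.7 kb in regions, 2.42 kb lay within KRTAP gene bodies. The 15 regions were confined to 3 loci. The chromosome 17 locus contained 3 regions, the KRTAP24-1 to KRTAP19-8 locus on chromosome 21 contained 8, and the KRTAP10-1 to KRTAP10-12 locus on chromosome 21 contained 4.

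**Figure D1:**
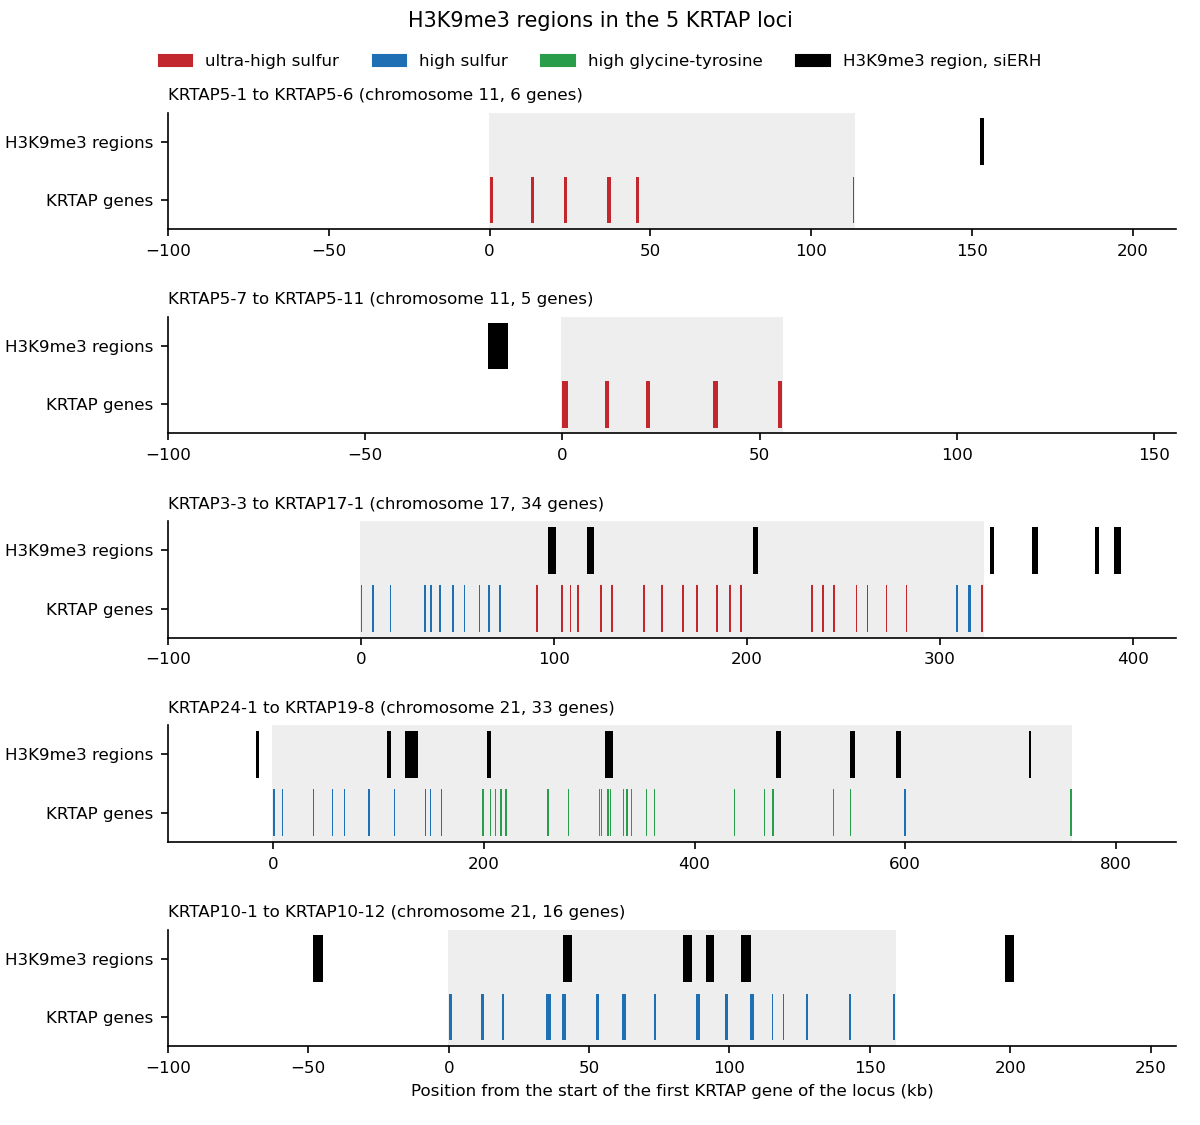
Position of KRTAP genes (coloured by protein class) and of H3K9me3 regions (black) along the 5 loci, in kb from the start of the first KRTAP gene; the grey band is the locus span, and the shortest genes are drawn at a minimum width. Both chromosome 11 loci have no region inside the band, and the chromosome 21 loci contain 8 and 4.

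Of the 94 KRTAP genes, 6 shared at least 1 bp with a region, or 6.38% (Wilson 95% interval 2.96 to 13.2%). For 5, regions covered 10% or more of the gene body, against 2.4% of all protein-coding genes. That 2.4% is not matched for gene length, on which a rule by share of the gene body depends. Among all protein-coding genes the share with at least 1 bp was 10.5% (6.2% on chromosomes 11, 17 and 21 together), but KRTAP genes are short, with a median length of 829 bp against 24115 bp. Among the 983 protein-coding genes with a length between the shortest (208 bp) and the longest (1643 bp) KRTAP gene, 1.12% overlapped a region. These were 11 genes, of which 6 were the KRTAP genes. All 6 lay on chromosome 21, where 11.7% of protein-coding genes overlapped a region. None of the 34 KRTAP genes of chromosome 17 did, which allows a share of up to 8.82% (5.39% of protein-coding genes there), and none of the 11 of chromosome 11, which allows up to 27.3% (5.92%). These intervals and limits cover counting error only.

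The high glycine-tyrosine genes had the most overlaps, 4 of 22 (18.2%, Wilson 95% interval 7.31 to 38.5%). They all lie in the KRTAP24-1 to KRTAP19-8 locus, where the other 11 genes, of the high sulfur class, had 0 overlaps. That 0 allows a share of up to 27.3%, so these counts do not separate the classes. Of all protein-coding genes on chromosome 21, 11.7% overlapped a region. KRTAP19-2, at 30487043 to 30487436 on chromosome 21, was covered over its whole 394 bp by a region of 3426 bp at 30484134 to 30487559 with a score of 20779. KRTAP6-2 (30598590 to 30598902, minus strand) and KRTAP22-1 (30601087 to 30601382, plus strand) were both covered whole by the same region of 7560 bp at 30596219 to 30603778, with a score of 29320. The 6 overlapping genes therefore rest on 5 regions. KRTAP7-1 (30829039 to 30829759, minus strand) was covered over 415 of its 721 bp, or 57.6%, by a region of 3871 bp at 30829345 to 30833215 with a score of 18864.

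High sulfur genes overlapped regions in 2 of 40 cases (5.00%, Wilson 95% interval 1.38 to 16.5%), and these were KRTAP10-5 and KRTAP10-11. KRTAP10-5 (44579455 to 44580604, minus strand) was covered over 932 of its 1150 bp, or 81.0%, by a region of 3133 bp at 44579673 to 44582805 with a score of 19811. KRTAP10-11 (44646414 to 44647650, plus strand) was covered over only 66 of its 1237 bp, or 5.34%, by a region of 3559 bp at 44642921 to 44646479 with a score of 24923. It is the member just inside the overlap rule, and KRTAP10-9, at 1.29 kb from a region, is the one just outside. The whole KRTAP10 and KRTAP12 array, 16 genes, lies within the body of TSPEAR, a gene linked to hair and tooth development. TSPEAR spans 214 kb and had 6.09% of its length in the same 4 regions, so these regions cannot be assigned to the KRTAP genes alone. Ultra-high sulfur genes (KRTAP4, KRTAP5, KRTAP9 and KRTAP17) had 0 overlaps in 32, which allows a share of up to 9.38%. They all lie on chromosomes 11 and 17, where no KRTAP gene of any class overlapped a region. Class and chromosome therefore cannot be told apart.

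The KRTAP genes that a region covered in part were KRTAP7-1, KRTAP10-5 and KRTAP10-11, which are too few for a rule on placement. The bases outside the region were the last 306, 218 and 1171 bp of these genes, and 0 bp were left out at the 5′ end. The regions reached 3456, 2201 and 3493 bases upstream of these starts. A strand and promoter were available for 80 of the 94 KRTAP genes, but not for KRTAP19-2. Each chromosome 11 locus gave only 1 of the 80. The chromosome 17 locus gave 33, and the chromosome 21 loci gave 30 and 15. Start sites inside a region numbered 5 of these 80 (6.25%, Wilson 95% interval 2.70 to 13.8%), and in each of the 5 the whole 250 bases upstream were covered. Over the 15843 protein-coding genes with a promoter in the table, 21 start sites (0.133%) lay in a region. The other 16 included 6 zinc finger genes and the protocadherins PCDHA1 and PCDHB15. Thus 5 of the 21 covered start sites were KRTAP genes, while KRTAP genes were 80 of the 15843. The 5 are not independent, since KRTAP6-2 and KRTAP22-1 share a region and the KRTAP10-5 and KRTAP10-11 promoters are close copies. Their share of 6.25% is near the 4.67% of the locus spans that lay in regions.

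The 250 bases before the start (GRCh38.p14, RefSeq) of the 5 genes are shown because they are the KRTAP promoters that lay within H3K9me3 regions. They are at chr21:30598903-30599152 (minus) for KRTAP6-2, chr21:30600837-30601086 (plus) for KRTAP22-1, chr21:30829760-30830009 (minus) for KRTAP7-1, chr21:44580605-44580854 (minus) for KRTAP10-5 and chr21:44646164-44646413 (plus) for KRTAP10-11. Each runs 5′ to 3′ on the gene's strand. In the first 3, capitals mark the motif TATAAA, which is the TATA box sequence. In the KRTAP10 pair, capitals mark the longest run of bases that they share.
KRTAP6-2: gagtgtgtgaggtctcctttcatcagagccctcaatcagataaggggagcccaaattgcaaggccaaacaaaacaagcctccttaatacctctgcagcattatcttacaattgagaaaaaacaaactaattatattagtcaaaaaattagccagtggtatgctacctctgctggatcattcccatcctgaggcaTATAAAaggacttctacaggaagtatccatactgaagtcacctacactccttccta
KRTAP22-1: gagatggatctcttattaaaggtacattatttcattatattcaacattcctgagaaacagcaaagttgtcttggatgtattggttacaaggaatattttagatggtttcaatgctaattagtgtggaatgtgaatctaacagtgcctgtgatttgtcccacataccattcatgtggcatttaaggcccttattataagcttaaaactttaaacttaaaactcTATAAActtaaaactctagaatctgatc
KRTAP7-1: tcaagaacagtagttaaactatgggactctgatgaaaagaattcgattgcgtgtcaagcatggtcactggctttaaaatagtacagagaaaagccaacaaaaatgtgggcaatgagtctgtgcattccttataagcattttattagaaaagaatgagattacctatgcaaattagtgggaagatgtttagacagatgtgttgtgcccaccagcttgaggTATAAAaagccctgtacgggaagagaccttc
KRTAP10-5: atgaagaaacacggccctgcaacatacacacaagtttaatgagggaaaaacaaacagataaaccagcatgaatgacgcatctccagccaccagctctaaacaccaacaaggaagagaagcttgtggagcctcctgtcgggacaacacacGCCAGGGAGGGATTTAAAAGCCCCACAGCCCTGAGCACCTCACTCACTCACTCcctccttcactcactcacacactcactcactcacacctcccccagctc
KRTAP10-11: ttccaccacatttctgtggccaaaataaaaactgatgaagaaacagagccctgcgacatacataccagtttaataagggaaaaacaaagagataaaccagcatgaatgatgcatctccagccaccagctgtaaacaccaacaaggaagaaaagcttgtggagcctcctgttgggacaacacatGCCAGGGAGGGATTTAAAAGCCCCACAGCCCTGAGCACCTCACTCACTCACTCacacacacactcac

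The KRTAP10-5 and KRTAP10-11 promoters are close copies of each other. Aligned without gaps at the best shift, they differed at 17 of 216 bases (92.1% identity), and the marked run of 53 bases was found in no other of the 15843 promoters. In the other pairs of close copies both members lay outside regions. KRTAP10-2 and KRTAP10-10 were 97.3% identical over 223 bases and lay 28.2 and 3.71 kb from a region. On chromosome 17, KRTAP4-7 and KRTAP4-9 were 99.0% identical over 193 bases and lay 5.33 and 3.92 kb from a region. In all, 9 of 80 KRTAP promoters had another at 90% identity or more over at least 150 bases, 5 of them in the chromosome 17 locus and 4 in the KRTAP10 locus. How the authors placed reads that fit several copies is not given in the sources used here, so the assignment to single members of these pairs is uncertain. The KRTAP6-2, KRTAP22-1 and KRTAP7-1 promoters had no match above 42.1%.

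KRTAP promoters are poor in CpG, the dinucleotide that DNA methylation acts on. The 250 upstream bases had a median GC content of 40.6% and a median of 1.5 CpG, against 62.4% and 17 over all protein-coding promoters. The 5 promoters in regions had between 32% and 51.6% GC and between 0 and 4 CpG, which is within the range of the KRTAP promoters outside regions (28.4% to 62.4% GC and 0 to 10 CpG). TATAAA, searched on both strands, occurred in 63 of 80 KRTAP promoters (78.8%) and in 9.23% of all protein-coding promoters of the same length. It occurred in 3 of the 5 promoters in regions and in 60 of the 75 outside them. A match shows that the letters are present and not that the site is used.

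**Figure D2:**
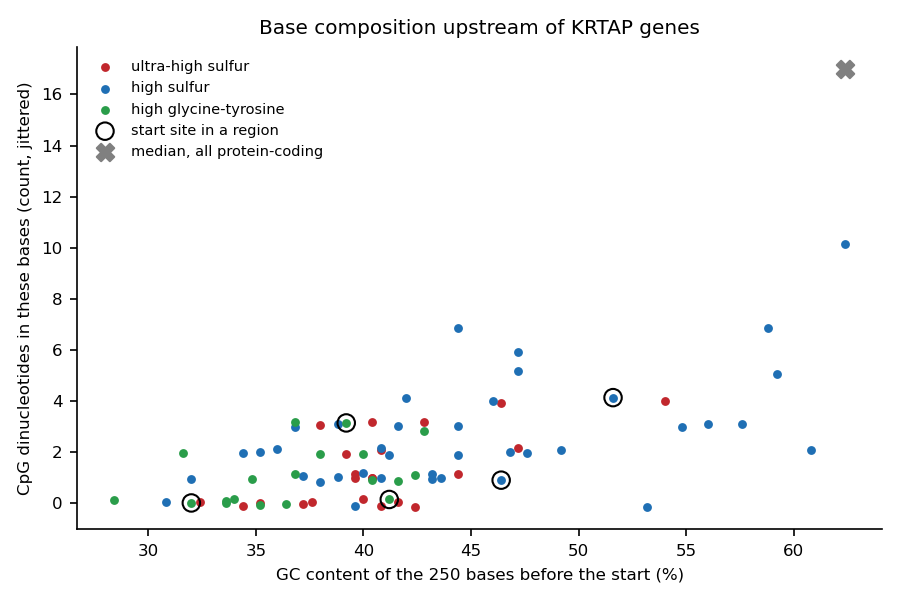
GC content (x axis, %) and number of CpG dinucleotides (y axis, points jittered) in the 250 bases before each of 80 KRTAP genes, coloured by protein class. Circled points are the 5 genes whose start lies in a region, and the grey cross is the median of all protein-coding genes at 62.4% GC and 17 CpG.

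Most KRTAP genes outside regions still had a region nearby. The median distance to the nearest region was 21.3 kb (binomial 95% interval of the median 13.95 to 31.4 kb), and no KRTAP gene was farther away than 151.5 kb. Over all protein-coding genes the median was 132 kb, and over those of KRTAP length 155 kb. Both sets include the KRTAP genes. The 889 other genes of KRTAP length had a median of 181 kb, with 33 within 5 kb and 47 within 10 kb. Within 5 kb of a region lay 19 of 94 KRTAP genes, or 20.2%, against 12.4% of all protein-coding genes and 5.29% of those of KRTAP length. Within 10 kb the count was 31, or 33.0%, against 15% and 7.93%. Within 50 kb it was 75, or 79.8%, against 30.1% and 25.7%. Within 100 kb it was 89, or 94.7%, against 43.2% and 38.1%. Clustered protocadherins, another gene array, had 79.2% within 50 kb and 94.3% within 100 kb. Their median length was 110198 bp, so they are not matched to the KRTAP genes in length. Chromosome 21 as a whole, which carries 49 of the 94 KRTAP genes, had 46.4% and 60.3% of its protein-coding genes within these distances. These were 111 and 144 of 239 genes, of which 46 and 49 were the KRTAP genes themselves. Genes of an array share their nearest region, so these counts rest on few regions.

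**Figure D3:**
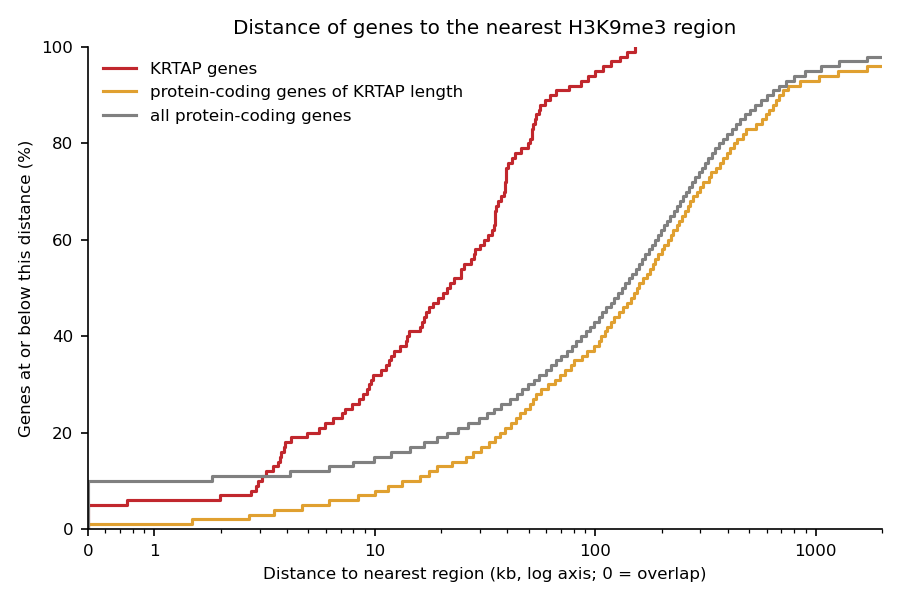
Share of genes (y axis, %) at or below each distance to the nearest H3K9me3 region (x axis, kb, log scale, overlap drawn at the left edge) for 94 KRTAP genes, 983 protein-coding genes of KRTAP length and all 20037. The KRTAP curve reaches 79.8% at 50 kb, where the others, which include the KRTAP genes, are at 25.7% and 30.1%.

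The loci differed in this distance. Genes of the KRTAP10-1 to KRTAP10-12 locus lay at a median of 10.4 kb and all 16 within 39.5 kb, with KRTAP10-1 farthest. Those of the KRTAP24-1 to KRTAP19-8 locus lay at a median of 12.6 kb, with KRTAP19-6 farthest at 54.0 kb. In the chromosome 17 locus the median was 31.7 kb, from 2.67 kb at KRTAP4-8 to 96.3 kb at KRTAP3-3. In the KRTAP5-7 to KRTAP5-11 locus it was 34.99 kb, from 13.8 kb at KRTAP5-7 to 68.4 kb at KRTAP5-11. The KRTAP5-1 to KRTAP5-6 locus was the most distant, with a median of 121 kb, from 39.0 kb at KRTAP5-6 to 151.5 kb at KRTAP5-1. The ranges of all 5 loci overlapped between 39.0 and 39.5 kb. The 39.0 kb end is KRTAP5-6 alone. All distances in its locus were measured to the same region of 1339 bp, which a minimum length of 2 kb would drop. Without chromosome 21 the median over the other 45 genes was 35.2 kb.

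**Figure D4:**
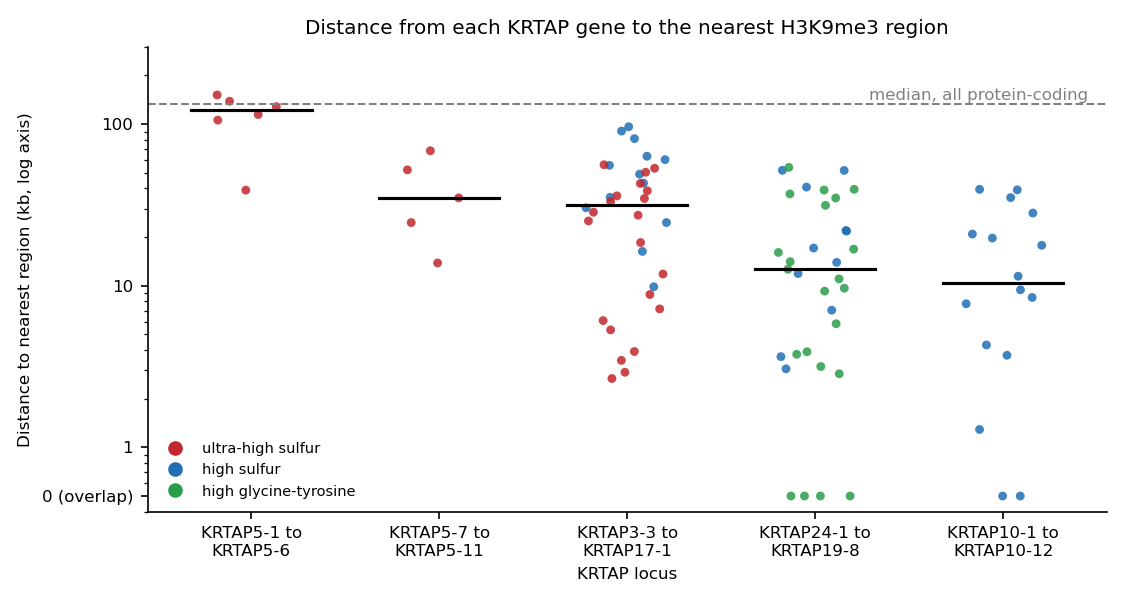
Distance of each KRTAP gene to the nearest region (y axis, kb, log scale, overlap drawn at the bottom) in the 5 loci, coloured by protein class, with black lines at the locus medians. Only the chromosome 21 loci have genes at 0, and the dashed line is the median of all protein-coding genes at 132 kb.

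On chromosome 17, regions were found only in the KRTAP4 and KRTAP9 part of the array. A region of 3838 bp at 41090477 to 41094314 lay between KRTAP4-7 and KRTAP4-8, with a score of 28024. Another, of 3859 bp at 41110407 to 41114265, lay between KRTAP4-9 and KRTAP4-11, with a score of 23244. In both pairs the genes point toward each other, so these regions lie beyond their 3′ ends. The third, of 2600 bp at 41196727 to 41199326, lay between KRTAP9-1 and KRTAP9-2 with a score of 16076. No region lay among the KRTAP3, KRTAP1 and KRTAP2 genes, which are high sulfur genes at the other end of the array, and the nearest region below KRTAP3-3 was 228 kb away. Above the array, a region of 2447 bp began 3.45 kb past KRTAP17-1.

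The KRTAP24-1 to KRTAP19-8 locus contained the longest region, 12216 bp at 30406106 to 30418321 between KRTAP13-1 and KRTAP13-3, with a score of 54304. KRTAP13-1 lay 3.06 kb from another region of 3591 bp, at 30389379 to 30392969, and KRTAP13-3 lay 7.06 kb from the long one. Of the 3 remaining regions without a KRTAP gene, the first, 5075 bp at 30758282 to 30763356, lay 2.85 kb from KRTAP21-1. The next, 4177 bp at 30872825 to 30877001, lay 3.64 kb from KRTAP11-1, and the last, 2457 bp at 30998724 to 31001180, was 37.0 kb from KRTAP19-8. In the KRTAP10 locus, the 2 regions without a KRTAP gene were 3415 bp at 44622389 to 44625803, next to KRTAP10-9, and 2896 bp at 44630746 to 44633641, which was 3.71 kb from KRTAP10-10.

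Of the 10 regions between KRTAP genes, 3 lay between genes that point toward each other, 1 between genes that point apart and 5 between genes of the same direction, while for 1 a neighbour's strand was not given in the table. Of the 80 KRTAP genes with a strand, 54 were on the minus and 26 on the plus strand. The arrangements were not counted over all neighbouring KRTAP genes, so the split shows no preferred placement. None of the 18 KRTAP pseudogenes overlapped a region, and neither did the antisense RNA KRTAP5-AS1. The 8 SCYGR genes on chromosome 2, which carry KRTAP28 as an older symbol and are not counted as members, had 0 overlaps. Of protein-coding genes of KRTAP length 1.12% overlapped a region, so these counts of 0 are not read as a result.

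The regions inside KRTAP loci were close to the list's median in length and mostly below it in score. Their median length was 3591 bp, against 3529 bp over the list, and ranged from 2457 to 12216 bp. The deposited score has no named unit and is the authors' own value per region. Its median in the loci was 19811, against 24171 over the list, and 11 of 15 lay below the list median. The lowest, 12678 in the region between KRTAP11-1 and KRTAP19-8, was close to the lowest score of the list on these chromosomes, 12640. Per base pair, 13 of the 15 lay below the list median of 6.98 score units, and the 8 of the KRTAP24-1 to KRTAP19-8 locus ranged from 3.30 to 6.07. Dropping regions scored below the list median left 3 overlapping KRTAP genes (KRTAP6-2, KRTAP22-1 and KRTAP10-11), against 6.33% of all protein-coding genes, and raised the median distance to 56.9 kb.

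**Figure D5:**
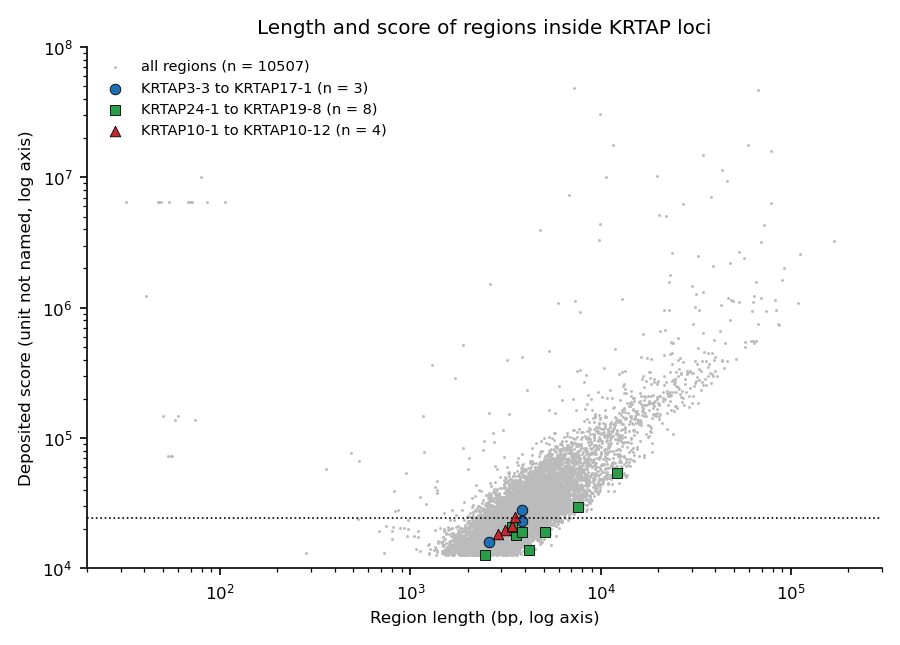
Length (x axis, bp, log scale) and deposited score (y axis, unit not named, log scale) of all 10507 regions in grey and of the 15 regions inside KRTAP loci in colour; the dotted line is the median score. Of the 15 coloured points 11 lie below the line.

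The chromosome 11 loci had regions only outside them. The nearest to the KRTAP5-1 to KRTAP5-6 locus was a compact region of 1339 bp at 1736783 to 1738121 in IFITM10, with 14.8 score units per base pair, and on the other side one of 4576 bp at 1363016 to 1367591. The KRTAP5-7 to KRTAP5-11 locus had one of 4929 bp at 71508505 to 71513433 over the pseudogene S100A11P3, and on the other side none for 543 kb, up to one of 3943 bp at 72125616 to 72129558.

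The chromosome 17 locus was followed at 3.45 kb by one of 2447 bp at 41319162 to 41321608 and preceded at 228 kb by one of 6945 bp at 40758301 to 40765245. The chromosome 21 loci also had regions on both sides. The KRTAP24-1 to KRTAP19-8 locus was followed at 115 kb by one of 4315 bp in TIAM1, at 31153514 to 31157828, and preceded by one of 2707 bp at 30264651 to 30267357, 13.95 kb from KRTAP24-1. The KRTAP10-1 to KRTAP10-12 locus lay between one of 3416 bp at 44490687 to 44494102, 44.9 kb away, and one of 3219 bp at 44737236 to 44740454, 39.2 kb past KRTAP10-12.

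The covered share of the loci was set beside their surroundings. In the KRTAP24-1 to KRTAP19-8 locus regions covered 5.60% of the span, against 0.90% and 1.44% of the 300 kb on either side and 3.55% of chromosome 21. In the KRTAP10 locus they covered 8.17%, against 3.77% and 3.22% on either side. The order for the KRTAP10 locus turned round without regions scored below the list median, an alternative chosen after the data were seen: the locus was then covered over 2.24%, and its flanks over 3.77% and 3.22% as before. The KRTAP24-1 to KRTAP19-8 locus was then covered over 2.61%, against 0% and 1.44% beside it. The chromosome 17 locus did not stand above its flanks in this way, with 3.20% covered against 3.25% below and 5.26% above, and 1.22% of the chromosome. Without the low-scored regions it was covered over 1.19%, against 2.31% and 0.861%. Both chromosome 11 loci had 0% covered, while 5.55% of the 300 kb below KRTAP5-7 lay in 5 regions. Over all loci the flanks were covered over 2.65%, against 4.67% for the loci, and without the low-scored regions over 1.76%, against 1.93%.

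The keratins, whose filaments the KRTAP proteins cross-link, were compared next. Of 55 keratin genes, 1 overlapped a region (1.82%, Wilson 95% interval 0.32 to 9.61%, against 10.5% of all protein-coding genes). This was KRT34, a hair keratin on chromosome 17, which was covered over 81 bp, or 1.32% of the gene, by a region at 41383736 to 41387309. The type I keratins of chromosome 17 flank the KRTAP array, and 8 of these 28 (28.6%) lay within 5 kb of a region, against 12.4% of all protein-coding genes and 7.78% of those on chromosome 17. Besides KRT34, these included the hair keratins KRT33A at 1.98 kb, KRT33B at 3.77 kb, KRT32 at 3.41 kb and KRT35 at 3.93 kb. The rest were not hair keratins: KRT26 at 0.993 kb, KRT16 at 1.43 kb and KRT25 at 2.76 kb. The other hair keratins of chromosome 17 lay farther away, from KRT31 at 6.41 kb to KRT39 at 124 kb. The median over the 28 was 27.6 kb, near the 31.7 kb of the KRTAP genes between them. The 27 keratins of chromosome 12, mostly type II and without KRTAP genes among them, had a median of 432 kb and 0 within 50 kb.

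The epidermal differentiation complex on chromosome 1, another array of short genes of the skin and hair surface, had 0 overlaps in 44 genes. A count of 0 here leaves room for a share up to 6.82%. All protein-coding genes had 10.5%, and those of KRTAP length 1.12%. Its median distance was 197 kb. LCE3A at 1.91 kb and LCE3B at 2.98 kb were the 2 genes within 5 kb (4.55%, against 12.4% and 5.29%). Of 19 genes that regulate or build the hair shaft, 1 overlapped a region, against 10.5% of all protein-coding genes. This was EDAR, the ectodysplasin receptor of hair placodes, which had 4.15% of its bases in a region at 108946026 to 108949958 on chromosome 2. The median distance of the 19 was 126 kb, close to the 132 kb of all protein-coding genes, and 6 lay within 50 kb. The transcription factors ranged widely, from DLX3 at 12.9 kb to HOXC13 at 798 kb. Clustered protocadherins, an array of other function and longer genes (median 110198 bp), overlapped in 3 of 53 cases (5.66%, against 10.5% of all protein-coding genes). They lay at a median of 33.7 kb, a distance that many of them share. The regions on PCDHA1 and PCDHB15 were 35102 and 35593 bp long with scores of 282336 and 389734, above the highest values inside a KRTAP locus, 12216 bp and 54304. The region on PCDHB10, which covered 25.4% of that gene, was 4559 bp long with a score of 37936, within the range of the KRTAP loci.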

How the data were processed

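Per the labels' protocols, CUT&RUN DNA was cut by pA/G-MNase and purified by phenol-chloroform. The submitters' processing notes name build hg38, Bowtie2 2.3.4.1, SAMtools 1.16.1, deepTools 3.5.0, bedtools 2.27.1, R 3.6.3 and SEACR 1.3, without their roles. The calling threshold, any control library and the way replicates were merged are not given in the sources used here.

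The authors deposited 1 list of 10536 regions with a whole-number score whose unit is not named, and a piece number. The 10507 regions on chromosomes 1 to 22, X and Y were used, with overlapping rows joined. Of these rows 17 are pieces that repeat a score, and 0 lie in a KRTAP locus. Genes and promoters came from RefSeq tables of GRCh38.p14, without exons. The promoter table matched 80 of 94 KRTAP genes.

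Distances run from gene edge to region edge, with 1 bp for adjacent bases. Intervals are 95% (Wilson for shares, binomial for medians), and where no gene overlapped, the limit is the share that 3 genes would be. Protein classes follow the subfamily names. In 500 simulated checks, covered bases and distances differed 0 times from counting each base. Python 3.11.15, numpy 2.4.6, scipy 1.17.1, pandas 2.3.3 and matplotlib 3.10.9 were used. The pooled list holds no values per sample, so no test was made. Protein composition was not computed because protein sequences were not used here. The members and lists were chosen with earlier results of these data known. By rule, the text names every overlapping KRTAP gene, the nearest and farthest in each locus, the regions in or beside each locus, and listed genes with a region; other genes were named after their values were seen. Alternatives changed region length, joining, score, score per base pair, split pieces, the overlap rule, gene type and the locus gap.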

Additional observations from a re-analysis of the deposited data

How the results depend on the processing

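Of 85 values computed under alternatives, 64 moved by less than their interval (or, where genes were counted, by less than 1.5 times). A minimum region length of 2 kb, a limit of 20 score units per base pair and the removal of split pieces moved no gene count or share. The median distance over all KRTAP genes did not move either. Distances by locus were not recomputed, and the 2 kb minimum drops the 1339 bp region nearest to KRTAP5-1 to KRTAP5-6. These settings could not change overlaps or shares in the KRTAP loci. The regions there were at least 2457 bp long, had at most 7.30 score units per base pair and included 0 split pieces. The 64 include these unchanged values and are therefore no measure of stability. Dropping regions scored below the median left 3 overlapping KRTAP genes, 0 keratins and 6 genes of KRTAP length, 0.87% of KRTAP bases and 1.93% of locus spans in regions, and a median distance of 56.9 kb. Joining regions within 5 kb gave 4.78% of KRTAP bases and 5.02% of locus spans. Extending genes by 5 kb on each side gave 19 KRTAP genes, 8 keratins, 2 epidermal differentiation complex genes and 6 protocadherins, and requiring 10% of the gene body left 0 keratins. Chosen after the data were seen, leaving out chromosome 21 gave 0 KRTAP genes and a median of 35.2 kb, and the 300 kb flanks in place of the loci gave 2.65%, or 1.76% without regions scored below the median. The cause was not tested, beyond the changes that follow from fewer or longer regions by construction. Splitting loci at 250 kb gaps gave the same 5 loci.

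No paired analysis was possible because the list pools the replicates and holds 1 group. Replicates were not left out in turn, since their values are not separate in the list. Depth is unknown, so the list gives no level of H3K9me3 for genes without a region.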
